A study of Homo sapiens with 5 samples.

Results

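Strong trans joins are pairs of 1 Mb bins on different chromosomes with far more Hi-C contacts than bin pairs between chromosomes usually have. The trans signal of each of 5 libraries was divided by that library's median nonzero trans signal over chromosomes 1 to 22, giving a scaled signal, and bin pairs with a mean scaled signal above 20 over the libraries were taken as members, without chromosome 17. Of 3153613 such bin pairs with a value in all libraries, 239 were members (0.00758%), and another 48 strong bin pairs held chromosome 17. Members of a chromosome pair within 5 Mb of each other on both chromosomes were counted as 1 join, which gave 76 joins in 53 chromosome pairs. The scaled signal chose the members, so their levels are a description.

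In situ Hi-C ligates DNA ends that lie close together inside intact nuclei and counts the ligated pairs. The cells were RMG1, an established line grown from a clear cell carcinoma of the ovary. The ARID1A KO group had 2 libraries of cells with ARID1A knocked out by CRISPR and wild-type CAPH2. The CAPH2 KD group had 2 libraries of cells carrying a hairpin RNA (shCAPH2) against CAPH2, with wild-type ARID1A, and the control was 1 library of cells with a control hairpin (shControl) and both genes wild type. Whether a group's libraries are separate cultures or clones is not given in the labels. The replicate error from the KD libraries may therefore be only technical. The 2 KO libraries differed beyond counting error, with 1 and 1030 contacts at the strongest bin pair of a join of chromosomes 11 and 20. The CRISPR cells had a control made with a hairpin.

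As background, contacts in Hi-C fall steeply with distance along a DNA molecule, and 2 loci on different chromosomes usually meet rarely. A focal block of strong trans contacts that fades away from 1 point is a known mark of a rearrangement that puts 2 chromosomes on 1 molecule, as translocations do in cancer cells. Repeated sequence and chromosome ends can also give strong trans bin pairs. ARID1A binds DNA as part of BAF, a complex that moves nucleosomes. CAPH2 (NCAPH2) is a subunit of condensin II, which compacts chromosomes and keeps their territories apart.

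The values are balanced signal. Whole contacts recovered from them (98.6% to 99.5% of values within 0.05 of a whole number) summed over autosomes to 30.7 and 31.7 M contacts (M for mega) in the KO libraries, 54.3 and 82.8 M in the KD libraries and 46.7 M in the control. Trans bin pairs at 0 made up 23.4% and 23.8% in KO, 8.44% and 4.03% in KD and 11.5% in the control. The choice of scaling shifted all bin pairs: over 1371009 trans bin pairs tested, the median log2 difference of KO from control was -0.17 on the scaled signal and -0.03 after division by the mean trans signal. For KD against control it was 0.03 and -0.02. The 2 KO libraries stood apart from each other in which joins they held, so every value below is given for each library. Counts of contacts have exact Poisson intervals (95%) that cover counting error only.

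The joins were put in 3 classes by position and by read yield, the number of contacts a bin had relative to the library's median bin. Inner joins numbered 47, with 205 members in 29 chromosome pairs. Another 22 joins (27 members) held a bin of low read yield, under 0.25 of the median in at least 1 library, and 7 joins (7 members) had both ends within 2 Mb of a chromosome end. An inner join held from 1 to 27 members, and 19 held 1. Inner joins touched chromosome 3 most often (15 joins), then chromosome 9 (11) and chromosomes 1 and 19 (9 each). Chromosomes 7, 21 and 22 had no inner join. Genes and DNA sequence of the bins were not analysed here, because the annotation at hand is of another genome build.

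A join was called kept in a library where the median scaled signal of its members was at least 0.5 of that in the highest library, absent where it was under 3, and weaker otherwise. Of the 47 inner joins, 39 were kept in all 5 libraries. KO replicate 1 kept 41 and lacked 6, and KO replicate 2 kept 43, with 2 weaker and 2 absent. Each KD library kept 46 and lacked 1, and the control kept 45, with 1 weaker and 1 absent. The heat map of the inner joins shows most joins at one level across the columns and a few dark cells, most of them in the KO columns.

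**Figure D1:**
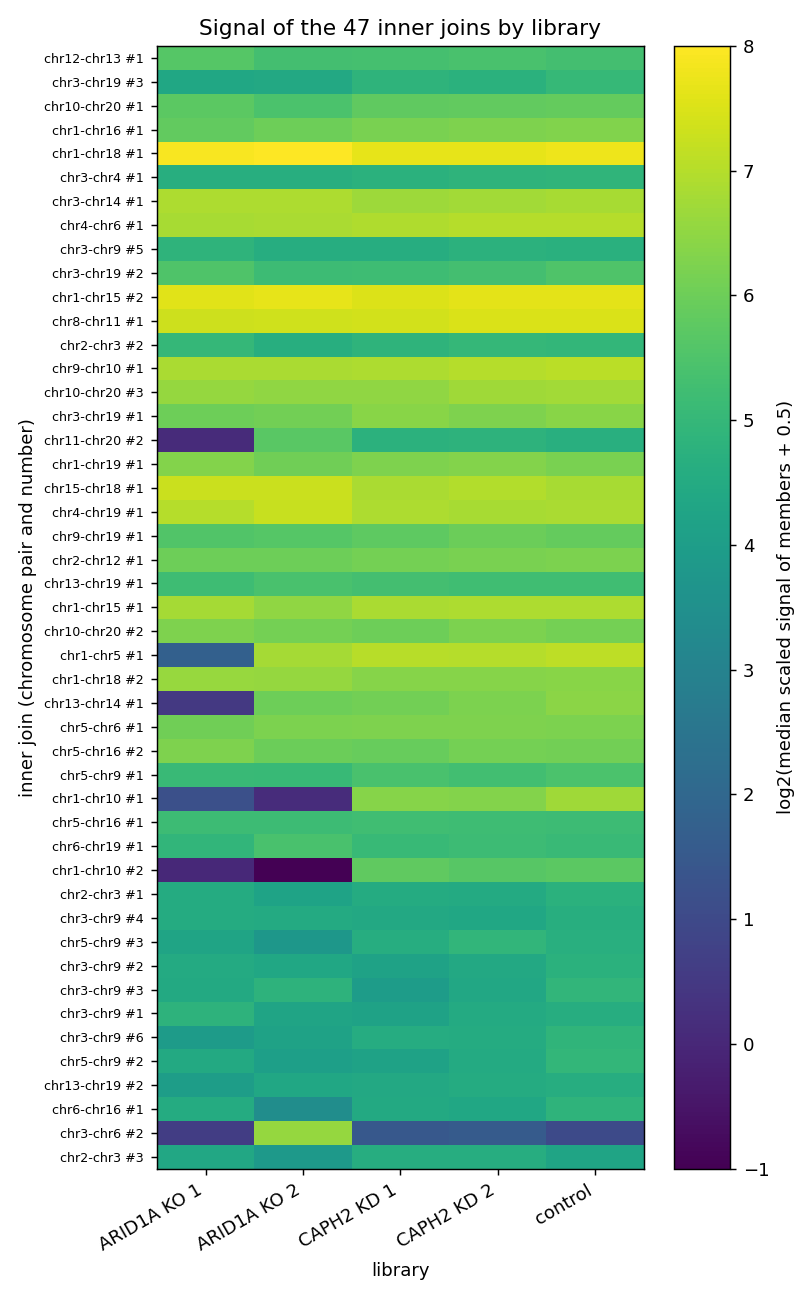
Median scaled signal of the members of each of the 47 inner joins, as log2 of the value plus 0.5 (colour), in the 2 ARID1A KO, 2 CAPH2 KD and 1 control libraries (columns). Joins are ordered by the mean scaled signal of their strongest bin pair, so a join with many members can look dimmer than its neighbours. The dark cells are the 6 joins absent in KO replicate 1, of which 2 are also absent in KO replicate 2 and 1 (chr3-chr6 #2) is present only in KO replicate 2.

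The strongest join tied chr12:53000001-54000000 to chr13:44000001-45000000 (hg19, as for all positions; both on the long arms; below, a bin is named by its start in Mb, so 53 Mb of chromosome 12 is this bin). Its strongest bin pair had a scaled signal of 341 and 367 in KO, 357 and 375 in KD and 389 in the control, from 1225 to 2312 contacts. All 5 libraries lay close together at this bin pair, but not at its neighbour at 45 Mb of chromosome 13, which read 291 and 190 in KO, 238 and 246 in KD and 247 in the control. For the members that join bins at 49 to 52 Mb of chromosome 12 with 45 Mb of chromosome 13, KO replicate 1 was the highest library and KO replicate 2 the lowest. The rest of the 10 Mb quadrant that holds them, without members, had its lowest mean in KO replicate 1, with 2.67 and 6.49 in KO, 6.92 and 7.06 in KD and 8.41 in the control. At 52 Mb they read 88.8 and 42.9 in KO, 59.1 and 61.6 in KD and 58.1 in the control.

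The next was chr3-chr19 #3, between chr3:49000001-50000000 and chr19:9000001-10000000, with 21 members. It read 254 and 336 in KO, 362 and 367 in KD and 395 in the control. KO replicate 1 was the lowest library, and the other 4 lay nearer to each other than to it. The chr10-chr20 #1 join tied the first bin of chromosome 10 to chr20:46000001-47000000 and read 293 and 276 in KO, 330 and 354 in KD and 343 in the control. Both KO libraries lay below the other 3 on this scale, but not after division by the mean trans signal, where the log2 ratio to the control was -0.03 and -0.11 in KO and -0.11 and -0.06 in KD.

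The chr1-chr16 join tied chr1:146000001-147000000 to chr16:70000001-71000000. It read 202 and 194 in KO, 250 and 248 in KD and 248 in the control. After division by the mean trans signal the log2 ratio to the control was -0.10 and -0.16 in KO and -0.04 and -0.10 in KD. The chr1-chr18 #1 join, between chr1:52000001-53000000 and chr18:11000001-12000000, was higher in KO on either scale, with 238 and 260 in KO, 205 and 201 in KD and 217 in the control. The chr3-chr4 join, between chr3:176000001-177000000 and chr4:110000001-111000000, varied least of the 39 joins kept everywhere on this scale, with 225 and 219 in KO, 219 and 226 in KD and 223 in the control.

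The last 4 completed the 10 strongest. The chr3-chr14 join (50 Mb of chromosome 3, 23 Mb of chromosome 14) read 197 and 195 in KO, 224 and 240 in KD and 245 in the control. The chr4-chr6 join (159 Mb and 30 Mb) read 191 and 204 in KO, 211 and 223 in KD and 222 in the control. The order of KO and KD in both joins turned with the scaling: after division by the mean trans signal the log2 ratio to the control was -0.12 and -0.13 in KO and -0.18 and -0.14 in KD at chr3-chr14, and -0.02 and 0.08 in KO and -0.12 and -0.10 in KD at chr4-chr6. The chr3-chr9 #5 join (49 Mb and 112 Mb) read 201 and 207 in KO, 192 and 226 in KD and 203 in the control, where the groups overlapped. The chr3-chr19 #2 join (10 Mb and 11 Mb) read 179 and 170 in KO, 226 and 223 in KD and 213 in the control, with both KO libraries lowest on either scale.

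These levels were set against contacts within chromosomes, which the choice of members did not use. The median scaled signal of bins 1 Mb apart on a chromosome was 733 and 711 in KO, 769 and 798 in KD and 808 in the control, and of bins 2 Mb apart it was 153 and 133 in KO, 160 and 163 in KD and 168 in the control. In the control, the strongest bin pair of 15 of the 47 inner joins reached the level of bins 2 Mb apart on a chromosome, 33 that of bins 5 Mb apart and 43 that of bins 10 Mb apart. No inner join in any library reached the level of bins 1 Mb apart. The median of all trans bin pairs without chromosome 17 was 0.890.

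Joins kept everywhere differ between libraries by about 2-fold at most by the definition of kept. The ratio of the highest to the lowest library at the strongest bin pair had a median of 1.28 over these 39 joins and ran from 1.03 (chr3-chr4) to 1.98 (chr3-chr9 #6). Their median log2 ratio to the control was -0.17 and -0.14 in KO and -0.07 and 0.00 in KD. After division by the mean trans signal it was 0.03 and 0.06 in KO and -0.12 and -0.10 in KD, so the sign for KO turned with the scaling and no direction is given for these joins as a set.

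No member passed the test in any comparison. In limma over all 1371009 bin pairs (log2 of scaled signal plus 0.5, adjusted p under 0.05, all libraries in 1 fit), 0 of 239 members and 0% of all bin pairs were called for KO against control. The same held for KD against control (0% of all) and for KO against KD (0% of all). At an unadjusted p under 0.05, limma gave 4, 0 and 5 members in these 3 comparisons (1.67%, 0% and 2.09%), against 5.89%, 3.56% and 6.12% of all bin pairs, and these comparisons share libraries. With 1 control library, the spread of a bin pair had 2 residual degrees of freedom. Limma draws each such spread toward the one typical of all bin pairs, so the p-values rest on that too. For a single join, an exact permutation test cannot go below a two-sided p of 0.333 with 2 libraries against 2 or against 1, so no such test is given.

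The 2 inner joins of chromosome 1 with chromosome 10 were absent in both KO libraries and kept in the other 3. The first, chr1-chr10 #1, ties chr1:22000001-23000000 on the short arm to chr10:78000001-79000000 on the long arm. Its scaled signal was 1.81 and 0.61 in KO, 81.3 and 79.6 in KD and 104 in the control. The KO values came from 5 contacts (1.62 to 11.7) and 2 contacts (0.24 to 7.22), against 364 and 541.5 contacts in KD and 408.5 in the control (369 to 450). The groups did not overlap, and the median of all bin pairs of these 2 chromosomes was 0.71 and 0.72 in KO.

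The second, chr1-chr10 #2, ties chr1:25000001-26000000 to chr10:113000001-114000000. Its scaled signal was 0.53 and 0 in KO, 55.8 and 49.5 in KD and 52.6 in the control. KO replicate 1 held 1 contact (0.03 to 5.57) and KO replicate 2 held 0 (up to 3.69), against 254 and 326 contacts in KD and 205 in the control. KO and the other libraries were again far apart. The log2 difference of KO from control was -6.21 (SE 0.62, limma unadjusted p 4.9e-05, adjusted p 0.837) for this join and -6.02 (SE 0.62, unadjusted p 5.9e-05, adjusted p 0.837) for the first. Against KD it was -6.21 (SE 0.51) and -5.66 (SE 0.51), with a limma adjusted p of 0.543 for both. Neither passed the threshold. They were the 2 members with the lowest p for KO against control.

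Signal around these bin pairs was lower in KO too. In the strongest 10 Mb quadrant beside chr1-chr10 #1, without the members, the mean scaled signal was 1.496 and 1.41 in KO, 3.57 and 3.56 in KD and 4.29 in the control. Beside chr1-chr10 #2 it was 0.98 and 1.13 in KO, 2.54 and 2.86 in KD and 2.62 in the control. A search over all trans bin pairs without chromosome 17 found 4 with a scaled signal above 20 in the control and both KD libraries and under 3 in both KO libraries. They were the 2 joins above and 2 bin pairs that missed the mean of 20. The first, between 22 Mb of chromosome 1 and 79 Mb of chromosome 10, borders chr1-chr10 #1 and read 0.65 and 1.12 in KO, 33.1 and 29.1 in KD and 32.2 in the control. The other, between chr1:211000001-212000000 and chr12:48000001-49000000, read 0.67 and 0.45 in KO, 21.7 and 36.7 in KD and 26.1 in the control, from 2 and 1 contacts in KO, 68 and 175 in KD and 71 in the control.

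**Figure D2:**
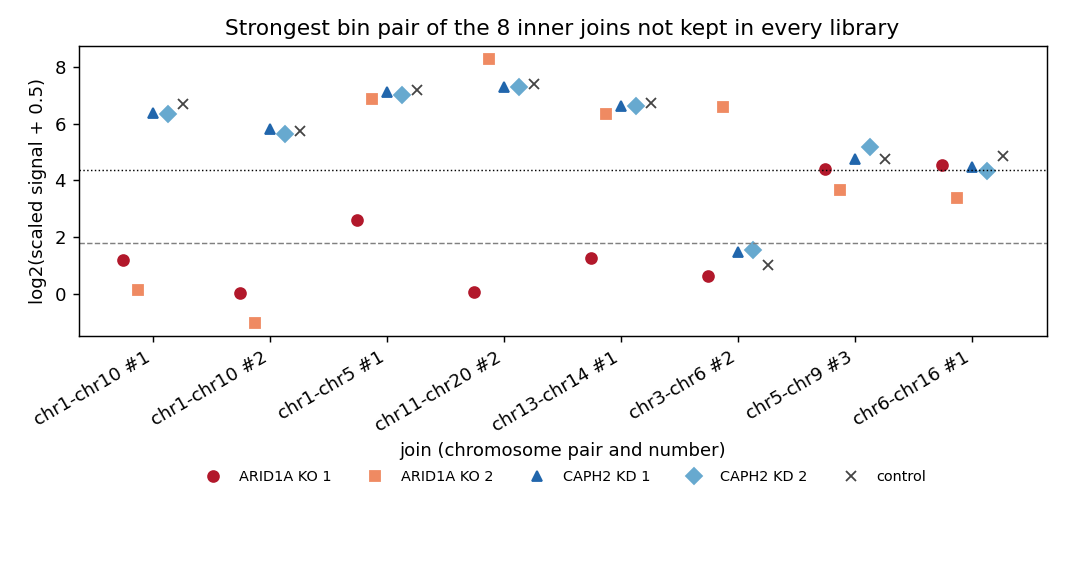
Scaled signal of the strongest bin pair, as log2 of the value plus 0.5, of the 8 inner joins that were not kept in every library, in the 2 ARID1A KO, 2 CAPH2 KD and 1 control libraries. The dotted line marks a scaled signal of 20 and the dashed line one of 3. Both KO libraries lie under the dashed line at the chr1-chr10 joins, KO replicate 1 alone is far below the others at chr1-chr5, chr11-chr20 #2 and chr13-chr14, and KO replicate 2 alone is high at chr3-chr6 #2.

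Another 3 joins were absent in KO replicate 1 and present in KO replicate 2, KD and the control. The chr1-chr5 join ties chr1:26000001-27000000 to chr5:56000001-57000000, with 3 members. Its strongest bin pair read 5.62 and 115 in KO, 136 and 128 in KD and 143 in the control. KO replicate 1 held 11 contacts there (5.49 to 19.7), against 419.5 in KO replicate 2, 561 and 799 in KD and 525 in the control. This bin pair alone would be called weaker, while the median over the 3 members, 2.93, fell under 3.

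The chr11-chr20 #2 join ties chr11:116000001-117000000 on the long arm to chr20:8000001-9000000 on the short arm, with 6 members. It read 0.56 and 308 in KO, 155 and 156 in KD and 165 in the control. KO replicate 1 held 1 contact (0.03 to 5.57) and KO replicate 2 held 1030 (968 to 1095), with 712.5 and 1052.5 in KD and 651 in the control. KO replicate 2 was thus the highest library, and in each of the 6 members it read above every other library. Because the highest library sets the call, the control, at 0.485 of it by the median over members, was called weaker here, while its level differed little from the KD libraries.

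The chr13-chr14 join ties chr13:110000001-111000000 to chr14:74000001-75000000, with 3 members. It read 1.92 and 80.4 in KO, 97.3 and 98.8 in KD and 106 in the control, and KO replicate 1 held 5 contacts (1.62 to 11.7) against 337.5 in KO replicate 2. KO replicate 1 stood alone in this join as in the other 2. A search over all trans bin pairs without chromosome 17 found 12 above 20 in the 4 other libraries and under 3 in KO replicate 1, and 11 of them were members of these 3 joins; the last lies beside chr13-chr14, at 75 Mb of chromosome 14. No bin pair was strong in both KO libraries and under 3 in the rest.

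Read yield changed at the ends of these 3 joins. It is not a separate measurement, because it counts the contacts before balancing, those around the joins included. It also set which joins were inner. The log2 ratio of the yield of KO replicate 1 to KO replicate 2 was taken as the median over the 5 bins on either side of each end. Over 2475 autosomal bins the step between the sides had a median size of 0.05 and a 95th percentile of 0.23. All 6 ends of the 3 joins had a larger step than the 95th percentile (sizes 0.48 to 1.12), against 9 of 60 other end bins of inner joins. Each time the lower ratio lay on the side where trans signal around the join was strongest in the libraries that held it.

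At the chr11-chr20 #2 join, the strongest quadrant was the lower side of both chromosomes. The yield ratio there was -0.95 below the end on chromosome 11 and 0.04 above it, and -0.49 below the end on chromosome 20 and -0.01 above it. On chromosome 20 the lower ratio reached the end of the short arm, with a median of -0.47 over 8 bins. On chromosome 11 it did not reach the other end of the chromosome, since the median over all 110 bins below the join was 0.00. At the chr13-chr14 join, the ratio on chromosome 13 was -0.43 below the end and 0.08 above it, with a median of -0.53 over the 91 bins below. On chromosome 14 it was -0.03 below the end and -0.59 above it, with a median of -0.38 over the 33 bins above.

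At the chr1-chr5 join, the ratio on chromosome 1 was -0.52 below the end and 0.03 above it, with a median of -0.46 over the 26 bins to the end of the short arm. On chromosome 5 it was 0.14 below the end and -0.97 above it, in a stretch that returned to near 0 within 10 Mb. The 2 chr1-chr10 joins lie in the same part of the short arm of chromosome 1. At the chr1-chr10 #2 end on chromosome 1 the ratio was -0.52 below and 0.01 above. Its end on chromosome 10 lay inside a stretch of low ratio, with -0.53 below and -0.49 above, and a median of -0.50 over the 22 bins to the end of the chromosome. At the chr1-chr10 #1 end on chromosome 10 the ratio was 0.03 below and 0.13 above. A ratio of the KO libraries to each other does not show a change that both share. Relative to the control, the yield beside the chr1-chr10 #2 end on chromosome 10 had steps of 0.48 and 0.47 in KO and -0.07 and -0.03 in KD. All were smaller than the 95th percentile of step size over all bins for that ratio. This percentile was 0.65 and 0.61 in KO and 0.11 and 0.06 in KD.

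**Figure D3:**
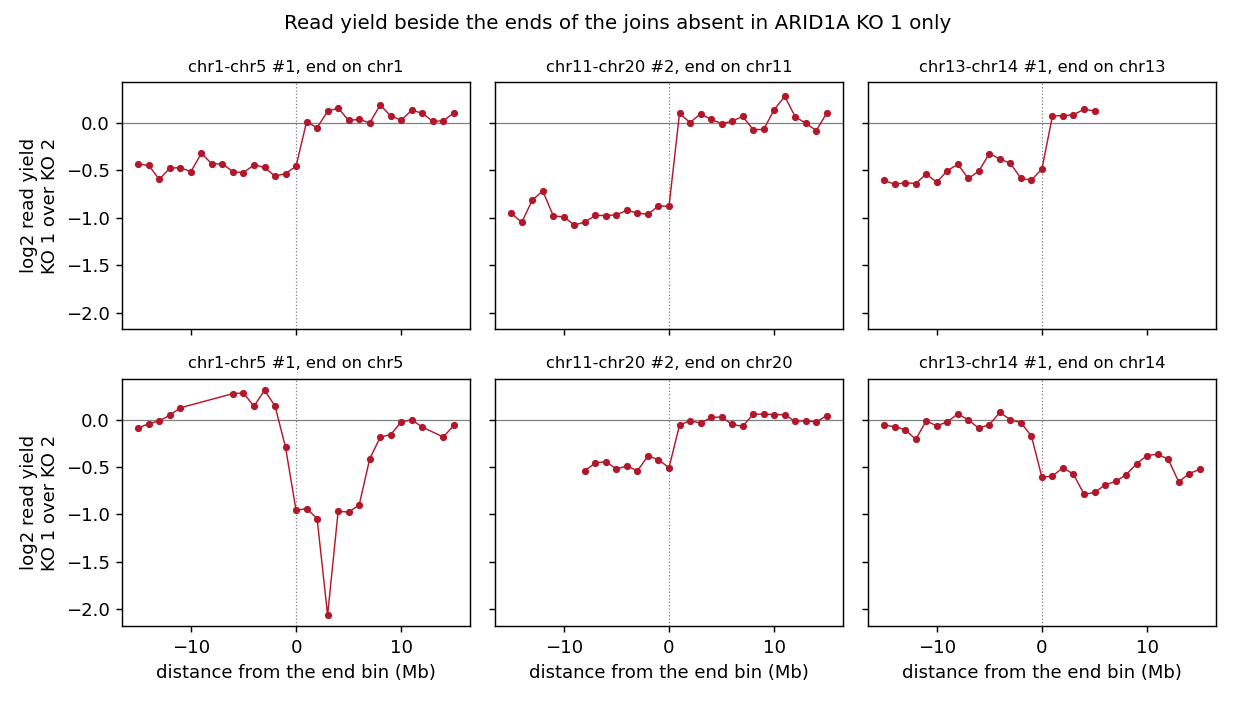
Log2 ratio of the read yield per 1 Mb bin in ARID1A KO replicate 1 to that in ARID1A KO replicate 2, by distance in Mb from the end bin (negative toward the lower coordinate), for both ends of the 3 joins absent in KO replicate 1 only (1 join per column). The ratio changes close to the end bin in each panel, and the median over the 5 bins of its lower side runs from -0.97 on chromosome 5 to -0.43 on chromosome 13.

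Steps of this kind were also found at ends of joins that both KO libraries kept. The ratio was 0.60 below and 0.01 above the chromosome 12 end of the chr12-chr13 join, and 0.04 below and -0.57 above its end on chromosome 13, which is the join whose members differed between the KO libraries. On chromosome 19 it was 1.01 below and 0.02 above the end of chr3-chr19 #3, and on chromosome 10 it was 0.05 below and -0.49 above the end of chr10-chr20 #3. The median log2 yield ratio to the control was -0.55 and -0.60 in KO on chromosome 18 and 0.60 and 0.47 on chromosome 19, while in KD it lay between -0.12 and 0.03 on every autosome. Chromosome 13 differed between the KO libraries (-0.57 and -0.13). The part of read yield in the trans signal was not tested.

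A single library held the last of these joins. The chr3-chr6 #2 join, between chr3:183000001-184000000 and chr6:32000001-33000000, read 1.05 and 94.5 in KO, 2.30 and 2.47 in KD and 1.54 in the control. KO replicate 2 held 177.5 contacts (153 to 206), against 2 in KO replicate 1, 5 and 8 in KD and 3 in the control. It became a member through KO replicate 2 alone, with a mean of 20.4. The strongest quadrant beside it read 1.24 and 3.48 in KO, 1.29 and 1.62 in KD and 1.42 in the control, so the surrounding signal was also highest in KO replicate 2. Its ends showed read yield steps of 0.06 and 0.03, under the 95th percentile of 0.23. No bin pair was above 20 in KO replicate 1 alone, in either KD library alone or in the control alone, with under 3 in the rest.

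Of the joins near the threshold, 2 were weaker in KO replicate 2. The chr5-chr9 #3 join (176 Mb and 139 Mb) read 20.4 and 12.1 in KO, 26.4 and 36.0 in KD and 26.3 in the control. It held 52 and 30 contacts in KO (38.8 to 68.2 and 20.2 to 42.8), 57 and 115.5 in KD and 52 in the control, so the counting intervals of the KO libraries overlapped. The chr6-chr16 join ties the first bin of chromosome 6 to 34 Mb of chromosome 16. It read 22.6 and 10.02 in KO, 21.5 and 19.8 in KD and 28.6 in the control, from 21 and 10 contacts in KO, whose intervals also overlapped, 36 and 49 in KD and 34 in the control.

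Besides the chr1-chr10 joins, 2 members had an unadjusted limma p under 0.05 for KO against control, 1 lower and 1 higher in KO. In chr1-chr16, the bin pair of 149 Mb and 70 Mb read 12.5 and 7.67 in KO, 29.2 and 32.2 in KD and 26.9 in the control. The KO libraries lay below the others, with a log2 difference of -1.41 from control (SE 0.55, adjusted p 0.837) and -1.60 from KD (SE 0.45, adjusted p 0.792). Neither passed the threshold. The member that was higher was chr7-chr14, a join with bins of low read yield and from 2 to 9 contacts, with a log2 difference of 1.67 (SE 0.60, adjusted p 0.837).

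Many joins shared an end with another join. Linking inner joins whose ends lie within 1 Mb put 31 of the 47 into 7 chains and left 16 alone. The longest chain held 8 joins of chromosomes 3, 9, 14 and 19, around 9 to 11 Mb and 48 to 50 Mb of chromosome 3, 111 to 112 Mb of chromosome 9 and 9 to 11 Mb of chromosome 19. It included 4 of the 10 strongest joins. All 8 were kept in every library.

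In 2 chains, every trans pair of the bins involved was joined. In the first, 52 Mb and 235 Mb of chromosome 1, 90 Mb of chromosome 15 and 11 Mb of chromosome 18 were linked by 5 joins of 1 member each. Both ends on chromosome 1 met the same bin of chromosome 15 and the same bin of chromosome 18. The chr1-chr15 #2 join read 193 and 204 in KO, 186 and 198 in KD and 198 in the control, and chr15-chr18 read 154 and 156 in KO, 115 and 124 in KD and 114 in the control. The chr15-chr18 join was higher in both KO libraries than in any other on either scale, as chr1-chr18 #1 and #2 were (#2 with 97.1 and 94.5 in KO, 82.1 and 82.7 in KD and 84.9 in the control), whereas chr1-chr15 #1 read 111 and 91.0 in KO, 114 and 119 in KD and 118 in the control.

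In the second, 159 Mb of chromosome 4, 30 Mb of chromosome 6 and 45 Mb of chromosome 19 were joined in all 3 pairs. Chr4-chr19 read 128 and 150 in KO, 119 and 114 in KD and 115 in the control. Chr6-chr19 had a lower level than its partners, with 29.5 and 41.8 in KO, 33.2 and 35.4 in KD and 33.6 in the control. The 3 joins were kept in all libraries.

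Within a chain, libraries did not have to lose joins together. The chain of chromosomes 1, 5, 9, 10 and 16 held 6 joins. KO replicate 1 lacked chr1-chr5 but kept chr5-chr16 #1, whose end on chromosome 5 lies in the next bin, at 55 Mb. That join read 35.6 and 35.3 in KO, 37.8 and 36.8 in KD and 35.4 in the control, from 72 and 80 contacts in KO, 84 and 122 in KD and 70 in the control. The 5 libraries were close together at this join. The chain of chromosomes 2, 3 and 6 likewise held the chr3-chr6 #2 join of KO replicate 2, 1 Mb from chr2-chr3 #1 on chromosome 3, which read 32.05 and 18.8 in KO, 29.04 and 30.9 in KD and 35.4 in the control.

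The remaining inner joins were kept in every library. On chromosome 3 they were chr2-chr3 #2 (114 Mb and 168 Mb, mean scaled signal 165, 27 members, the most of any join), chr2-chr3 #3 (113 Mb and 195 Mb, 20.1), chr3-chr19 #1 (9 Mb and 1 Mb, 158) and 5 joins with chromosome 9 (at 11, 21, 26, 34 and 48 Mb of chromosome 3, 21.6 to 24.4). The other joins of chromosome 1 were chr1-chr18 #2 (235 Mb and 11 Mb, 88.3) and chr1-chr19 (81 Mb and 55 Mb, 152). Chromosome 10 was joined with chromosome 9 (32 Mb with 74 Mb, 165) and with chromosome 20 in chr10-chr20 #2 (98 Mb and 49 Mb, 109) and #3 (99 Mb and 33 Mb, 160). Chromosome 5 was joined with 57 Mb of chromosome 6 (at 21 Mb, 73.0), with 140 Mb and 120 Mb of chromosome 9 (at 143 and 146 Mb, 66.0 and 21.5) and with 2 Mb of chromosome 16 (at 142 Mb, 66.8). The last ones were chr2-chr12 (101 Mb and 105 Mb, 115), chr8-chr11 (118 Mb and 18 Mb, 189), chr9-chr19 (111 Mb and 9 Mb, 119), chr13-chr19 #1 (46 Mb and 40 Mb, 111) and chr13-chr19 #2 (54 Mb and 28 Mb, 20.7).

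The joins differed in how far the signal reached around them. The mean scaled signal in each of 4 quadrants of 10 Mb around the strongest bin pair, without members, was compared in 46 inner joins. In 18 of them, 1 quadrant held more than 40% of the sum of the 4, and in 22 no quadrant held 33%. Of the 18, 12 had the same strongest quadrant with quadrants of 5 Mb and in all 5 libraries. Of all 47 inner joins, 37 had the same one at 5 Mb and 33 in all 5 libraries. The chr3-chr4 join was the most one-sided of the 10 strongest, with 70.9% in the quadrant below 176 Mb of chromosome 3 and above 110 Mb of chromosome 4. That quadrant read 9.39 and 9.23 in KO, 10.2 and 10.4 in KD and 11.1 in the control, while the other 3 had means from 1.03 to 1.65.

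For the 18 one-sided joins, the median over joins at 10 Mb from the strongest bin pair was 8.08 and 6.99 in KO, 7.65 and 7.76 in KD and 9.09 in the control. In the opposite quadrant it was 1.22 and 1.03 in KO, 1.34 and 1.31 in KD and 1.27 in the control. These medians include the 3 joins absent in KO replicate 1, where the mean over their strongest quadrant was 0.76 (chr1-chr5), 0.67 (chr11-chr20 #2) and 0.99 (chr13-chr14) in that library. The medians also hide joins with more than 1 strong quadrant. At chr2-chr3 #2 the strongest quadrant had a mean of 11.5 and the opposite one 9.95. At chr2-chr3 #1 the strongest had 11.2 and one beside it 8.83. For the other 29 joins, the strongest quadrant at 10 Mb read 1.16 and 1.13 in KO, 1.38 and 1.49 in KD and 1.39 in the control, close to the opposite quadrant. This median hides 5 joins with broad signal on several sides, whose strongest quadrants had means of 11.8 (chr5-chr9 #3), 9.003 (chr3-chr9 #2), 8.77 (chr3-chr9 #4), 7.49 (chr3-chr9 #3) and 6.86 (chr5-chr9 #2), and chr6-chr16, which lacks a value in 1 quadrant or more, with 5.22. Also among the 29 were the joins of the chain of chromosomes 1, 15 and 18, whose signal at 1 bin pair reached 224 on average while their strongest quadrants had means of 1.11 to 1.62. The quadrant was chosen on these values, so the difference between quadrants is a description.

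**Figure D4:**
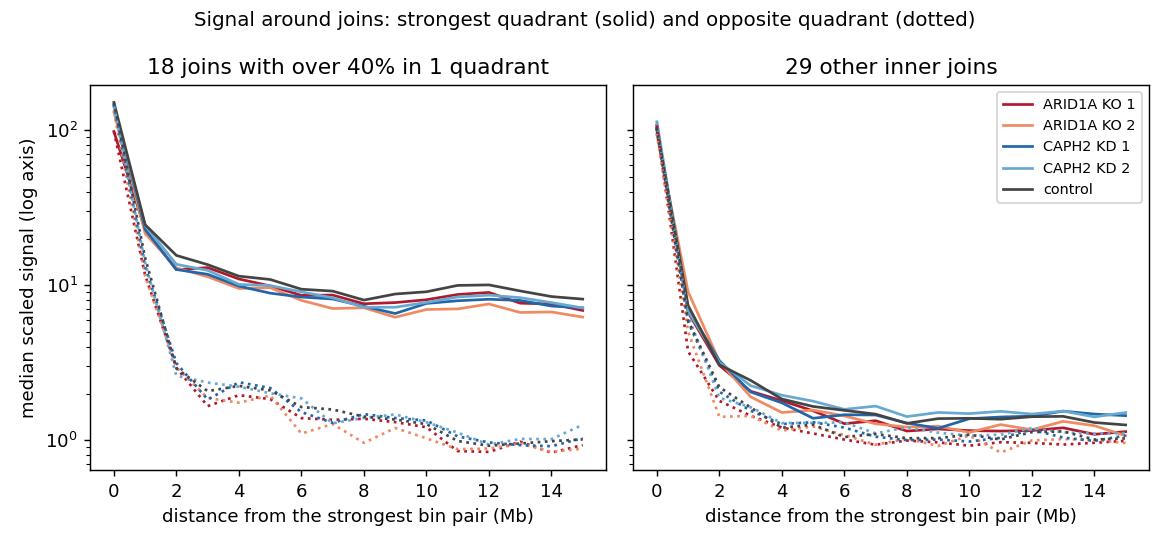
Median scaled signal (log axis) by distance in Mb from the strongest bin pair, in the strongest quadrant (solid) and the opposite one (dotted), for the 18 inner joins with over 40% of the signal in 1 quadrant (left) and the other 29 (right). Lines stand for the 2 ARID1A KO, 2 CAPH2 KD and 1 control libraries. In the left panel the solid lines stay at 6.23 or more out to 15 Mb while the dotted ones fall to about 1, and in the right panel both fall to near 1.

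Contacts within a chromosome were then measured across the end bins. The cis score of a bin is the log2 signal between the 5 bins below and the 5 bins above it relative to that within each side. Only pairs of bins that are not adjacent and lie under 5 Mb apart enter it. A low score thus means few contacts across the bin at these distances. It could be scored at 60 distinct end bins of inner joins. Their median percentile among the bins of the same chromosome was 26.4 and 27.4 in KO, 28.3 and 28.7 in KD and 28.7 in the control. Below the 10th percentile were 18 and 19 of the 60 in KO, 15 and 14 in KD and 17 in the control (28.3% of them, where 10% of all bins lie), and 44 or 45 of the 60 lay below their chromosome's median in each library.

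The lowest score of the whole chromosome fell on an end bin on 5 chromosomes in the control. At chr1:52000001-53000000, the end shared by chr1-chr15 #1 and chr1-chr18 #1, it was -2.09 and -2.16 in KO, -2.37 and -2.42 in KD and -2.22 in the control. At 114 Mb of chromosome 2 (chr2-chr3 #2) it was -2.47 and -2.77 in KO, -3.12 and -2.95 in KD and -2.90 in the control, and at 9 Mb of chromosome 3 (chr3-chr19 #1) -2.57 and -2.68 in KO, -2.93 and -3.07 in KD and -2.89 in the control. The KO scores were less low than the others at these 3 bins. At 142 Mb of chromosome 5 (chr5-chr16 #2) they were lower, with -1.69 and -1.79 in KO, -1.56 and -1.62 in KD and -1.64 in the control. The last was 49 Mb of chromosome 20 (chr10-chr20 #2), with -1.60 and -1.83 in KO, -2.01 and -2.08 in KD and -1.99 in the control. At 9 Mb of chromosome 19 (chr3-chr19 #3 and chr9-chr19) the KO libraries lay far apart. The score there was -0.58 and -3.83 in KO, -0.99 and -1.03 in KD and -1.25 in the control. In KO replicate 2 it was the lowest of the chromosome.

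No cis score passed the test. In limma over 2232 bins, 0 of the 60 end bins and 0% of all bins had an adjusted p under 0.05 for KO against control, likewise for KD against control (0% of all) and for KO against KD (0% of all). At an unadjusted p under 0.05, limma gave 8, 1 and 12 of the 60 for these 3 comparisons, against 6.18%, 2.24% and 16.8% of all bins. These counts changed when 1 KO library was left out: without KO replicate 1, 16 of 60 end bins passed for KO against control (21.9% of all bins), and without KO replicate 2, 29 of 60 did (38.3% of all bins). For KO against KD these counts were 27 (32.03% of all) and 43 (53.3% of all), and for KD against control 8 (13.9% of all) without either. A fit without a KO library takes the residual spread of each bin from the 2 KD libraries alone.

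The joins absent in KO replicate 1 alone differed in their cis scores. At the chr1-chr5 end on chromosome 5 the score was -1.01 and -1.22 in KO, -1.26 and -1.27 in KD and -1.24 in the control, at percentile 2.74 of the chromosome in the control and percentile 4.79 in both KO libraries. At its end on chromosome 1 it was -0.61 and -0.75 in KO, -0.80 and -0.97 in KD and -0.93 in the control. KO replicate 1 had the least negative score at both ends. At the chr13-chr14 end on chromosome 14 the score was -0.68 and -0.97 in KO, -0.80 and -0.76 in KD and -0.83 in the control. The chr11-chr20 #2 ends were not low: on chromosome 11 the score was -0.20 and -0.44 in KO, -0.39 and -0.40 in KD and -0.41 in the control, and on chromosome 20 it was above 0 in all libraries.

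**Figure D5:**
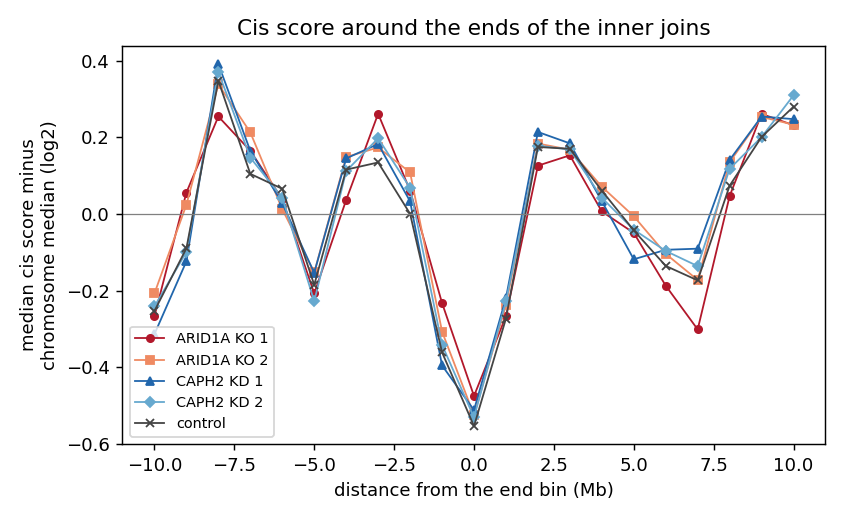
Median cis score (log2, minus the chromosome's median) by distance in Mb from the end bins of the inner joins, in the 2 ARID1A KO, 2 CAPH2 KD and 1 control libraries; 58 to 67 bins enter each point. The score is lowest at the end bin in all 5 libraries, at -0.47 and -0.52 in KO, -0.51 and -0.53 in KD and -0.55 in the control, and elsewhere within 10 Mb it lies between -0.39 and 0.39.

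Joins with a bin of low read yield rested on few contacts. Their strongest bin pairs held from 2 to 39 contacts in KO, 5 to 100 in KD and 2 to 93 in the control. Few bins made most of them: chr21:11000001-12000000 entered 5 joins, the last bin of chromosome 22 (from 51 Mb) 5, 146 Mb of chromosome 8 another 5, 29 Mb of chromosome 20 entered 4 and the first bin of chromosome 19 entered 3. The strongest were chr7-chr21, with 100 and 109 in KO, 99.5 and 152 in KD and 148 in the control, and chr3-chr6 #1, with 81.8 and 79.9 in KO, 96.0 and 78.0 in KD and 130 in the control. KO and KD overlapped in both joins.

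Of these 22 joins, 10 were kept in all libraries, 12 were weaker in at least 1 and none was absent. KO replicate 1 kept 18 and KO replicate 2 kept 13, KD kept 21 and 20 and the control 19. Chr20-chr21 #1 was weaker in both KO libraries and in 1 KD library, with 40.1 and 20.3 in KO, 81.9 and 30.4 in KD and 69.6 in the control, from 3 and 2 contacts in KO, 11 and 6 in KD and 8 in the control. Chr7-chr14 was weaker in the control, with 27.9 and 55.0 in KO, 29.3 and 29.7 in KD and 11.9 in the control, from 3 and 6, 6 and 9, and 2 contacts. Chr13-chr21 and chr20-chr22, with limma unadjusted p of 0.049 and 0.019 for KO against KD (log2 differences -1.03 and -1.35, adjusted p 0.792 for both), also belong to this class, with 2 and 3 contacts in KO at the first and 16 and 13 at the second.

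The other joins of this class that were weaker somewhere moved in different libraries. KO replicate 2 alone was weaker at chr8-chr11 #2, with 17.9 and 12.9 in KO, 26.3 and 24.9 in KD and 25.7 in the control, and at chr16-chr22, with 27.1 and 16.4 in KO, 27.3 and 39.7 in KD and 26.0 in the control. It was also the only weaker library at chr19-chr20, with 19.98 and 13.3 in KO, 24.2 and 34.4 in KD and 27.0 in the control, and at chr13-chr21, with 22.7 and 27.3 in KO, 56.9 and 46.7 in KD and 36.7 in the control at its strongest bin pair. Both KO libraries were weaker at 3 further joins. They were chr11-chr22, with 12.96 and 15.6 in KO, 20.7 and 22.5 in KD and 31.6 in the control, and chr20-chr22, with 17.7 and 15.7 in KO, 50.3 and 37.3 in KD and 26.3 in the control. At chr19-chr22, the last of them, the control was weaker as well, with 27.5 and 20.05 in KO, 59.9 and 32.2 in KD and 16.5 in the control.

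KD or control libraries were among the weaker ones at the rest. The chr4-chr21 join read 71.5 and 63.5 in KO, 76.9 and 51.0 in KD and 111 in the control, with KD replicate 2 weaker. The chr2-chr20 join read 33.6 and 24.7 in KO, 16.6 and 17.7 in KD and 25.1 in the control, with KD replicate 1 weaker. KO replicate 2 and the control were weaker at chr16-chr19, with 21.4 and 14.2 in KO, 31.7 and 34.6 in KD and 16.7 in the control. The joins kept everywhere besides chr7-chr21 and chr3-chr6 #1 were chr3-chr20, chr4-chr8, chr4-chr20, chr5-chr8, chr8-chr12, chr8-chr22, chr10-chr21 and chr14-chr15, with mean scaled signals from 20.3 to 50.1.

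The 7 joins between chromosome ends were chr4-chr12, chr11-chr16, chr11-chr20 #1, chr12-chr20 #1 and #2, chr16-chr20 and chr20-chr21 #2. The last bin of chromosome 20 entered 4 of them. The highest, chr4-chr12, read 43.0 and 46.0 in KO, 73.1 and 74.7 in KD and 72.8 in the control, from 89 and 88 contacts in KO (71.5 to 110 and 70.6 to 108), 184 and 277 in KD and 160 in the control. Both KO libraries lay below both KD libraries at 6 of the 7, and at 5 of the 7 after division by the mean trans signal, where chr11-chr16 no longer did. The exception on either scale was chr12-chr20 #1, which read 20.9 and 25.7 in KO, 27.9 and 24.3 in KD and 26.3 in the control. Among inner joins, both KO libraries lay below both KD libraries at 23 of 47 and above both at 6. After division by the mean trans signal they lay below at 5 of 47 and above at 27, so the direction turned with the scaling. Among the 22 joins with a bin of low read yield, they lay below at 10 and above at 2. After division by the mean trans signal these counts were 7 and 4. The share of all trans bin pairs with both KO libraries below both KD libraries was not counted. Over the 1371009 tested, the median log2 difference of KO from KD was -0.20 on the scaled signal. It was -0.004 after division by the mean trans signal. The 7 joins between chromosome ends share bins, so they are not separate observations. The chr11-chr20 #1 join read 16.99 and 16.9 in KO, 25.5 and 24.2 in KD and 26.9 in the control, and chr12-chr20 #2 read 24.3 and 24.0 in KO, 32.5 and 32.3 in KD and 40.6 in the control. The chr16-chr20 join read 20.52 and 24.4 in KO, 33.7 and 36.9 in KD and 33.6 in the control, and chr11-chr16 read 24.0 and 17.2 in KO, 26.3 and 24.5 in KD and 24.8 in the control. These joins were among the members tested with limma, of which 0 were called. All 7 were kept in every library except chr20-chr21 #2, which was weaker in KO replicate 2, with 16.8 and 12.8 in KO, 26.2 and 24.1 in KD and 21.1 in the control.

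The threshold of 20 cut through a continuum. The 3 members just above it had mean scaled signals of 20.01, 20.03 and 20.09, and the 3 bin pairs just below it 19.98, 19.97 and 19.89. At a threshold of 40, 81 bin pairs in 39 joins would be members.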

How the data were processed

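In situ Hi-C of RMG1 cells was measured in 5 libraries. The authors deposited 1 contact matrix per library in 1 Mb bins of hg19, aligned with Bowtie2 (version not given in the sources used here) per the submitters' processing notes. The deposited values are balanced signal: row sums are nearly equal within a library. Whole contacts were recovered from the steps of the values (98.6% to 99.5% whole within 0.05).

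Each library's trans signal was divided by its median nonzero autosomal trans signal. The members and lists were chosen with earlier results of these data known. Bin pairs with a mean scaled signal of at least 1 were tested on log2(scaled signal + 0.5) with limma 3.58.1 (R 4.3.3), all 5 libraries in 1 fit, with Benjamini-Hochberg adjustment over all bin pairs. Fold changes are on that scale and understate those of low values. The fit was tested on simulated data. Named were all joins, with every library's value for the 10 strongest and for those weaker or absent in any library, or with a member past the test. Replicate numbers did not pair the samples: the differences between replicates 1 and 2 in KO and KD had a correlation of 0.0006. Python 3.11.15, numpy 2.4.6, pandas 2.3.3 and scipy 1.17.1 were used. Alternatives covered the scaling, pseudocount, filter, thresholds, windows and left-out libraries.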

Additional observations from a re-analysis of the deposited data

How the results depend on the processing

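The number of members depended on the threshold, with 1828 bin pairs above 10 and 81 above 40, and on leaving out 1 library it ran from 225 to 266. Counted as inner joins only, an alternative chosen after seeing the data, there were 47 joins, 3 of them weaker somewhere (16 in all classes). Joins absent somewhere numbered 3 by the sum over members, for which the limit of 3 applies to a larger quantity, and 13 on contacts before balancing, against 6. Of the inner joins, 5 were absent somewhere on contacts before balancing, against 6. Another count rose: 13 inner joins were weaker somewhere on that measure, against 3, and the strongest join, chr12-chr13, was among them. With kept set at 0.67 or more, 37 joins were weaker somewhere. No member passed limma under any setting run. With all 5 libraries, limma gave 2 to 25 members at an unadjusted p under 0.05 for KO against control. It gave 0 to 7 for KD against control and 4 to 32 for KO against KD. The highest counts came with a mean-variance trend, at 10.46%, 2.929% and 13.39% of members against 5.298%, 3.28% and 5.795% of all bin pairs. With a pseudocount of 0.1 the shares were 0.837%, 0% and 1.67% of members, against 5.49%, 4.02% and 4.55% of all. In both KO comparisons, the members' share thus lay above or below that of all bin pairs, depending on the setting. Of 60 end bins, leaving out 1 KO or KD library gave 0 to 29 with a called cis score for KO against control. The counts were 0 to 8 for KD against control and 0 to 43 for KO against KD. The highest counts came from fits without a KO library, which called 38.3%, 13.9% and 53.3% of all bins. Those fits take the residual spread of each bin from the 2 KD libraries alone. The cause of the higher counts was not tested. With the replicate number as a block, which did not pair the samples, 1 end bin was called for KD against control (0.0448% of all bins). For KO against KD, 5 end bins were called (3.76% of all bins). With windows of 10 bins the median percentile of the ends in the control was 21.6. The control is 1 library, and counts under about 10 contacts limit the joins with a bin of low read yield.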
